A study of Mus musculus with 6 samples.

Results

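The pyruvate dehydrogenase complex and the enzymes that switch it off and on were described through 10 genes, taken by name from a table of 48397 genes. They were the kinases Pdk1, Pdk2, Pdk3 and Pdk4, the phosphatases Pdp1 and Pdp2, both subunits of the decarboxylase (Pdha1 and Pdhb), the acetyltransferase core Dlat and the binding protein Pdhx. All 10 were in the table and all 10 were among the 23924 genes with enough counts to be tested. The libraries held polyadenylated RNA of isolated pancreatic islets from wild-type C57B6 mice, with all cell types of the islet mixed. The 3 control libraries came from islets kept for 24 h with DMSO, a solvent, and the 3 prolactin libraries from islets kept for the same time with recombinant mouse prolactin at 500 ng/mL, a hormone that acts on beta cells during pregnancy. Islets of both groups had first recovered overnight in medium with serum and antibiotics. Separate animals or cultures are not named for the replicates, so any p-value measures only the spread between these libraries, which may be technical. The genes were chosen by name with their read levels in these same libraries, and thus their ratios of prolactin over control, already known. Those ratios are therefore given as a description, with a standard error (SE) but without p-values, and support nothing further.

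The complex sits in the mitochondrial matrix and turns pyruvate into acetyl-CoA, the step that joins glycolysis to the tricarboxylic acid cycle. The kinases add phosphate to the alpha subunit of the decarboxylase and stop the complex, and the phosphatases take the phosphate off again. Pdk4 is known as the kinase of fasting and fat use, induced through FOXO and PPAR factors, Pdk1 and Pdk3 as kinases induced by hypoxia, and Pdk2 as the widely expressed form. In beta cells pyruvate also enters through pyruvate carboxylase, and its oxidation feeds the ATP signal for insulin release.

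Within this set the kinases changed in opposite directions. Transcripts of Pdk4 rose 1.51-fold and those of Pdk1 fell to 0.74-fold in prolactin, while none of the other 8 genes, including every catalytic and structural member, passed the threshold. The threshold was 0.05 for the Benjamini-Hochberg adjusted p of a quasi-likelihood test in edgeR, fitted over all genes. In that fit 1 member was higher and 1 lower, against 0.652% of all tested genes that were higher, 0.104% that were lower and 0.757% in either direction. Because this contrast was known when the genes were picked, nothing is read from these shares. DESeq2, which called 5.71% of the genes it tested, and limma-voom, which called 0.740%, placed the same pair of genes past the threshold. In edgeR, Pdk4 was no longer past it when control replicate 2 (log2 ratio 0.55) or prolactin replicate 1 (0.61), 2 (0.56) or 3 (0.60) was left out, and Pdk1 without prolactin replicate 1 (-0.42), 2 (-0.44) or 3 (-0.45).

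The stretches upstream of the start sites of the pair that changed are shown here, because they are the sequence nearest to the transcripts that moved. They come from RefSeq on GRCm38.p6, the same assembly as the mm10 coordinates of the count tables, on the strand of each gene and 5′ to 3′, and end just before the transcribed part. The Pdk4 stretch spans 219 bases on the minus strand, chr6:5496310-5496528, and the Pdk1 stretch 250 bases on the plus strand, chr2:71872974-71873223. Capitals mark GCGTG, a core to which hypoxia-inducible factors can bind.
Pdk4: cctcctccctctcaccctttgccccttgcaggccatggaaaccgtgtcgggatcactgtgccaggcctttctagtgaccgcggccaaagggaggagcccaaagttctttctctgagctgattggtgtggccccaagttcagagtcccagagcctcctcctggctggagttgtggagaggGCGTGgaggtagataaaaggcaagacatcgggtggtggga
Pdk1: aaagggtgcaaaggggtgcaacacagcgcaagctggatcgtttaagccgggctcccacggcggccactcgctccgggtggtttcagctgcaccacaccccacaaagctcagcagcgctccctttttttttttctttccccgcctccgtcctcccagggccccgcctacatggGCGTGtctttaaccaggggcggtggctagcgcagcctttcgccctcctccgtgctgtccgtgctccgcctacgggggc
Each stretch held a single GCGTG. Each motif was searched on both strands in the 250 bases before the start, and windows were found for 9 of the 10 genes. GCGTG stood before 6 of them (Pdk1, Pdk3, Pdk4, Pdha1, Pdhb and Pdhx), and in 28.2% of all 32851 promoter windows of that length. ACGTG, the other form of the same core, stood before 4 (Pdk2, Pdk3, Pdp2 and Pdhb), against 16.6% of windows. The STAT5 consensus TTCNNNGAA was found before 0 of the 9 genes and in 7.02% of windows, the nuclear receptor half-site AGGTCA before 0 and in 14.0%, and the FOXO site GTAAACA before 0 and in 3.17%. Matches of ACGTG on opposite strands share bases in the word CACGTG. A match, or none, describes the letters of this window only.

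Levels are given as CPM, reads relative to the TMM-scaled depth of the library. Pdk4 (chromosome 6, 5483351 to 5496309, minus strand) stood at 52.5, 43.6 and 41.6 CPM in control replicates 1, 2 and 3 and at 67.1, 72.2 and 68.4 CPM in prolactin replicates 1, 2 and 3. All prolactin libraries lay above all control libraries, and control replicate 1 was the control nearest to them. The means were 45.9 ± 5.8 and 69.2 ± 2.6 CPM (SD, n = 3 per group), a log2 ratio of 0.59 (SE 0.085). Among the 11590 tested genes whose mean reached 5 CPM, 0.81% had a ratio at least as far from 0.

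Pdk1 (chromosome 2, 71873224 to 71903858, plus strand) stood at 64.0, 53.5 and 56.8 CPM in the controls and at 42.0, 43.3 and 43.8 CPM in prolactin. The groups did not overlap, and the prolactin libraries lay within a narrower range than the controls. The means were 58.1 ± 5.4 and 43.1 ± 0.9 CPM, a log2 ratio of -0.43 (SE 0.069), and 2.03% of the genes at 5 CPM or more had a ratio at least as far from 0.

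The other kinases did not pass. Pdk3, an X-linked gene (93764607 to 93832201, minus strand), stood at 22.5, 21.2 and 21.3 CPM in control and 19.9, 18.7 and 18.6 CPM in prolactin, without overlap (log2 ratio -0.19, SE 0.058). Pdk2 (chromosome 11, 95026258 to 95041354, minus strand) stood at 14.5, 17.3 and 16.6 CPM and at 15.6, 17.2 and 17.8 CPM, so the groups overlapped (log2 ratio 0.07, SE 0.083). The direction of Pdk2 turned without control replicate 1.

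**Figure D1:**
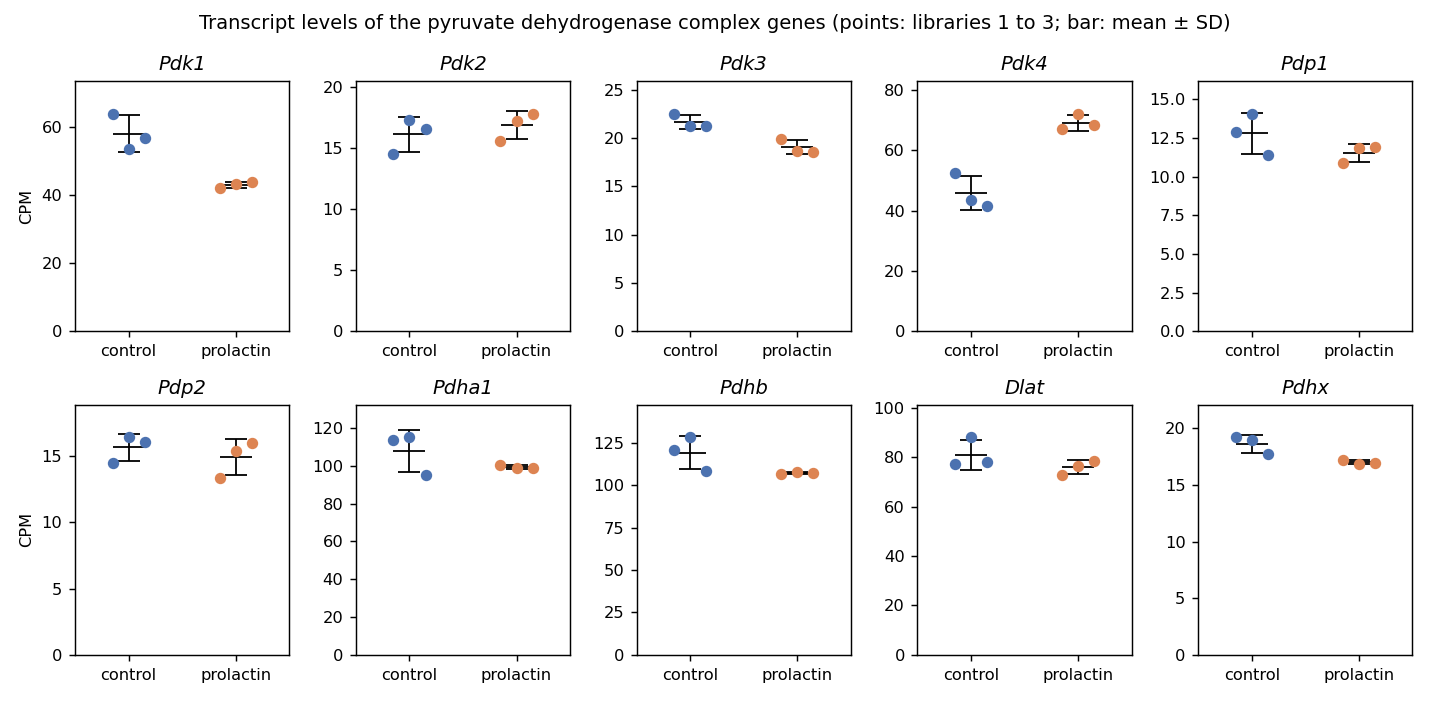
CPM of the 10 genes (vertical axes, each from 0) in the 3 control and 3 prolactin libraries, with points for libraries and bars for the mean ± SD. Pdk4 lies higher and Pdk1 lower in every prolactin library, while Pdk2, Pdp1, Pdp2, Pdha1 and Dlat overlap between groups.

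Pdk4 and Pdk1 were set against each other because they had passed in opposite directions. Their ratio had to differ between the conditions by that choice and is given as a description. The ratio of Pdk4 to Pdk1 in CPM was 0.82, 0.82 and 0.73 in the controls and 1.60, 1.67 and 1.56 in prolactin. Pdk1 thus gave more reads than Pdk4 in every control library and fewer in every prolactin library. To compare levels between genes, counts were divided by exon length and scaled to a common total (TPM). On this scale Pdk4 made up 40.9%, 37.6% and 36.2% of the summed kinase transcripts in the controls and 51.3%, 52.9% and 51.3% in prolactin. The share of Pdk1 was 21.9 ± 0.9% in control and 14.6 ± 0.3% in prolactin (SD, n = 3 per group), that of Pdk3 24.8 ± 0.7% and 19.6 ± 1.1%, and that of Pdk2 15.1 ± 2.2% and 14.0 ± 0.8%. Only the share of Pdk2 overlapped between the groups. The gain in the share of Pdk4 was 13.6 percentage points, and 13.0 with the longest coding transcript as the length of each gene. The order below Pdk4 depends on that length, since Pdk1 has 7779 bases in all its annotated exons and 5185 in its longest coding transcript. With the latter, Pdk1 took 26.8% and Pdk3 24.5% in the controls.

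**Figure D2:**
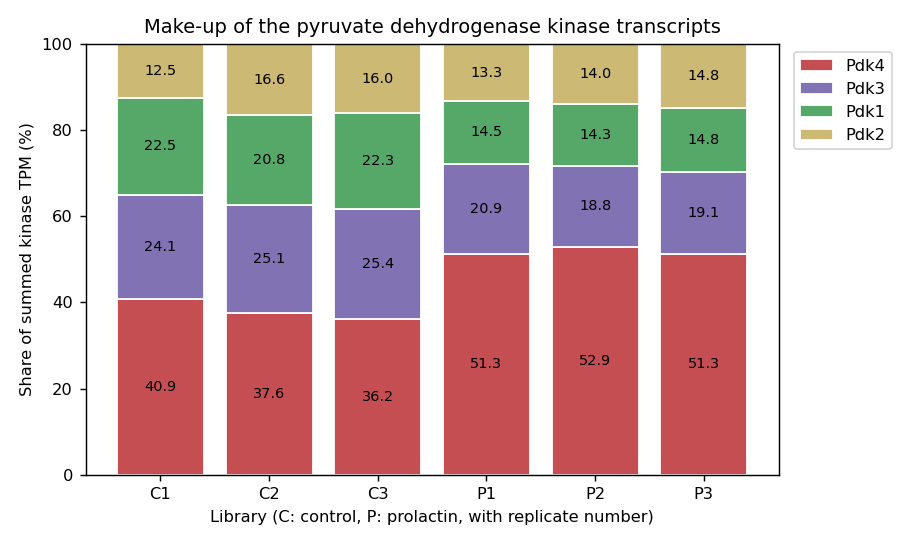
Share of each kinase gene in the summed TPM of Pdk1 to Pdk4 (vertical axis, percent) in each library, controls C1 to C3 and prolactin P1 to P3. Pdk4 takes 36.2% to 40.9% in the controls and 51.3% to 52.9% in prolactin.

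Summed over the 4 kinases, the level was 89.4, 76.5 and 82.1 TPM in the controls and 89.1, 97.7 and 94.7 TPM in prolactin. These groups overlapped, as control replicate 1 lay just above prolactin replicate 1. The rise of Pdk4 and the fall of Pdk1 were thus opposed within the sum. Per unit of Pdha1, the target of the kinases, the kinase sum was 1.20, 1.07 and 1.28 in control and 1.38, 1.47 and 1.44 in prolactin, without overlap. With 3 libraries against 3, an exact permutation test cannot give a two-sided p below 0.10, and no test was made of these ratios.

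The phosphatases, which restore the active complex, did not pass. Pdp1 (chromosome 4, 11958184 to 11966452, minus strand), the calcium-stimulated form, stood at 12.9, 14.1 and 11.4 CPM in control and 10.8, 11.8 and 11.9 CPM in prolactin (log2 ratio -0.15, SE 0.086). Pdp2 (chromosome 8, 104591468 to 104596836, plus strand), the insulin-responsive form, stood at 14.5, 16.4 and 16.1 CPM and at 13.4, 15.4 and 16.0 CPM (log2 ratio -0.07, SE 0.083). Both overlapped between the groups, and prolactin replicate 1 was the lowest library for each. The kinase sum per phosphatase sum, in TPM, was 5.21, 4.22 and 4.58 in control and 5.97, 5.52 and 5.27 in prolactin.

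The 4 catalytic and structural members had small negative ratios, from -0.15 to -0.09, and none passed. Pdha1, the X-linked alpha subunit that carries the phosphorylation sites (160122209 to 160138413, minus strand), stood at 114, 115 and 95.2 CPM in control and 101, 98.9 and 98.9 CPM in prolactin (log2 ratio -0.12, SE 0.074). Control replicate 3 was the lowest of all libraries here, and without it Pdha1 passed the threshold with a log2 ratio of -0.20. Its exons share 603 bases, 16.1% of its exon length, with those of Map3k15 on the opposite strand, and the counting did not use strand. Pdhb (chromosome 14, 8165991 to 8172992, minus strand), the beta subunit, stood at 121, 128 and 109 CPM and at 107, 108 and 107 CPM, barely without overlap (log2 ratio -0.15, SE 0.066).

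Dlat (chromosome 9, 50634633 to 50659780, minus strand), whose lipoyl arms carry the acetyl group, stood at 77.0, 88.0 and 78.1 CPM in control and 73.0, 76.5 and 78.6 CPM in prolactin (log2 ratio -0.09, SE 0.064). Pdhx (chromosome 2, 103021075 to 103073513, minus strand), which ties the dihydrolipoamide dehydrogenase to the core, stood at 19.2, 19.0 and 17.7 CPM and at 17.2, 16.8 and 17.0 CPM, without overlap (log2 ratio -0.13, SE 0.057). That dehydrogenase, Dld, is shared with other complexes and is not among the 10 genes. It stood at 132, 133 and 111 CPM in control and 119, 116 and 114 CPM in prolactin (log2 ratio -0.11, SE 0.072), with overlap.

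**Figure D3:**
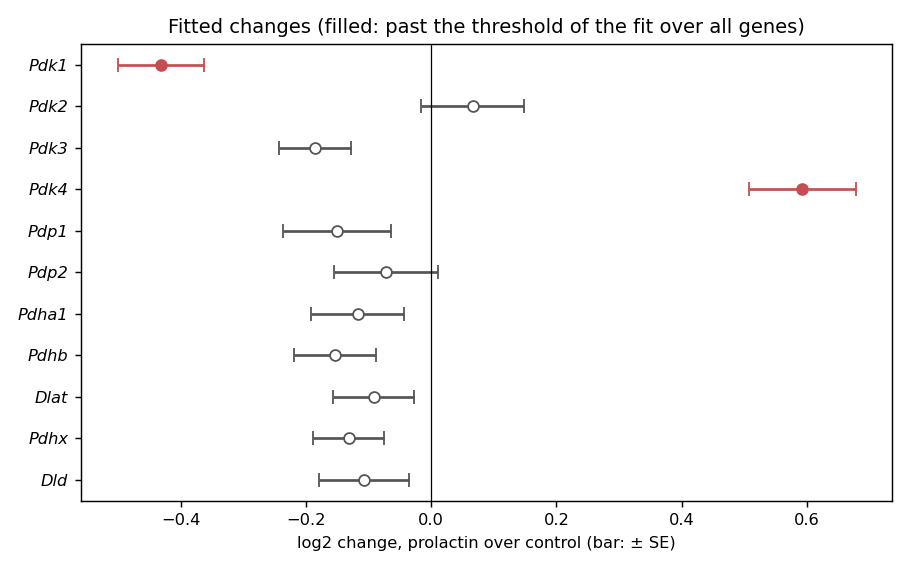
Fitted log2 ratio of prolactin over control with its SE (horizontal axis) for the 10 genes and Dld. Pdk4 at 0.59 and Pdk1 at -0.43 are the filled points past the threshold, and the other 9 genes lie between -0.19 and 0.07.

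Over the 10 genes, 8 log2 ratios were negative and the median was -0.12, from -0.18 without control replicate 3 to -0.075 without control replicate 2. The median over all tested genes was 0.00, with 49.9% negative, and over the 11590 genes at 5 CPM or more it was -0.02, with 6383 of them negative. The groups did not overlap for 5 of the 10 genes, against 21.6% of all tested genes, and nothing is read from that share because the contrast was known. By the authors' deposited table, adjusted p was under 0.05 for 2 of the 10, Pdk4 (log2 ratio 0.59, SE 0.092) and Pdk1 (-0.43, SE 0.081), against 5.71% of the genes given one there. That table holds the same fit as DESeq2 above, with log2 ratios that differ by at most 5.0e-08. It adds no further agreement.

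Per length, Pdhb was the most abundant member, with 172 to 200 TPM over the 6 libraries (median 183), followed by Pdha1 with 63.9 to 74.3 TPM (median 66.3). Dld lay between them, at 125 to 144 TPM. Dlat, at 35.7 to 41.7 TPM, could not be ordered against Pdk4, at 28.7 to 51.7 TPM: Pdk4 lay above it in 3 of 6 libraries, which were the prolactin ones. Below followed Pdk3 (18.1 to 21.5 TPM), Pdk1 (12.9 to 20.1 TPM), Pdk2 (11.2 to 14.0 TPM), Pdhx (10.5 to 11.9 TPM) and Pdp2 (9.17 to 11.6 TPM), in which each neighbouring pair overlapped in range, although Pdk3 lay above Pdk1 in all 6 libraries. That order of Pdk3 and Pdk1 rests on the exon length. With the longest coding transcript, mean shares of the kinase sum were 26.8% for Pdk1 and 24.5% for Pdk3 in control. In prolactin they were 18.6% and 20.2%. Pdp1 was lowest, at 5.76 to 7.22 TPM, in every library. Over the 6 libraries Pdhb per Pdha1 ranged from 2.66 to 2.87, and Dlat per Pdhx from 3.23 to 3.73. Pdk4 per Pdk1 ranged from 1.62 to 3.69 in TPM, which includes the difference between conditions known beforehand. Within conditions it was 1.75 ± 0.11 in control and 3.56 ± 0.12 in prolactin (SD, n = 3 per group). Dlat per Pdhx was 3.50 ± 0.25 and 3.59 ± 0.17, so the subunit ratios were not all steadier within a condition.

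Genes around the complex were followed in 6 lists that hold none of the 10. In the list of other parts of the complex and supply of its cofactors, 0 of 11 tested genes passed in edgeR (1 had an unadjusted p under 0.05; DESeq2 called 0 and limma-voom 0), and the median log2 ratio was -0.10. Among those with the smallest p was Bola3, an iron-sulfur factor needed for lipoate (log2 ratio -0.15, edgeR unadjusted p = 0.0590, adjusted p = 0.368). Pdha2, the testis form of Pdha1, did not have enough counts to be tested.

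Among 15 genes of pyruvate supply and its other fates, 0 passed in edgeR (4 had an unadjusted p under 0.05; DESeq2 called 1 lower and limma-voom 0), and the median was -0.06. The pyruvate kinase gene Pkm went from 1403 ± 88 to 1186 ± 6 CPM (SD, n = 3 per group; log2 ratio -0.24, SE 0.070, edgeR adjusted p = 0.164), and Gpt2, a mitochondrial alanine aminotransferase, from 24.2 ± 2.6 to 29.0 ± 0.5 CPM (log2 ratio 0.26, SE 0.077, adjusted p = 0.173). Among 16 enzymes of the tricarboxylic acid cycle, 0 passed in edgeR, where 0 also had an unadjusted p under 0.05, and DESeq2 and limma-voom called 0 each. Their log2 ratios lay between -0.14 and 0.05, with a median of -0.06. Sucla2 (-0.14, adjusted p = 0.455) and Idh3b (-0.08, adjusted p = 0.545) had the smallest p.

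The list of sister complexes, which use the same lipoyl chemistry, held the 1 gene of the 6 lists that passed in edgeR, where 5 of its 9 genes had an unadjusted p under 0.05, and limma-voom also called 1 here. Gcsh, the lipoyl-carrying protein of the glycine cleavage system, stood at 26.5, 28.5 and 24.7 CPM in control and 35.4, 37.9 and 38.4 CPM in prolactin. All prolactin libraries lay above all controls, and Gcsh rose by a log2 ratio of 0.49 (SE 0.065, edgeR adjusted p = 0.0156). It did not pass without prolactin replicate 2 (adjusted p = 0.122) or 3 (adjusted p = 0.114). The other 8 genes, among them the branched-chain dehydrogenase subunits with their kinase and phosphatase, did not pass in edgeR, and the list's median was -0.03. DESeq2 called 2 genes higher here, Gcsh and Ogdhl, the latter named after its values were seen, with a log2 ratio of 0.36 (adjusted p = 0.259) in edgeR. Ogdhl encodes a relative of the oxoglutarate dehydrogenase subunit.

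Among 14 regulators of Pdk4 and known targets of PPAR or FOXO factors, 0 passed in edgeR (3 had an unadjusted p under 0.05; DESeq2 called 0 and limma-voom 0), and the median was -0.06. Of the log2 ratios 8 were negative and 6 positive. Cpt1a, which admits fatty acids to mitochondria, went from 59.6 ± 4.7 to 50.9 ± 0.4 CPM (SD, n = 3 per group; log2 ratio -0.23, SE 0.063, edgeR adjusted p = 0.154). Acadm, a fatty acid oxidation enzyme, had a log2 ratio of -0.16 (adjusted p = 0.245). Foxo3, a FOXO factor gene named after its values were seen, had a log2 ratio of 0.21 (adjusted p = 0.286). Their part in the rise of Pdk4 was not tested.

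Among 14 hypoxia factors and targets, 0 passed in edgeR (4 had an unadjusted p under 0.05; DESeq2 called 1 higher and 1 lower, limma-voom 0), and the median was -0.10. Epas1, which encodes a hypoxia-inducible factor, had a log2 ratio of 0.24 (SE 0.050, edgeR adjusted p = 0.0724), and the mitophagy gene Bnip3 -0.43 (SE 0.13, adjusted p = 0.192). Control replicate 1 was the highest library both for Pdk1 and for this list. Its mean log2 CPM exceeded the average of the 6 libraries by 0.23 there, against 0.13 below in control replicate 2 and 0.08 above in control replicate 3. In prolactin the list lay 0.02 above in replicate 1, 0.10 below in replicate 2 and 0.09 below in replicate 3. Without control replicate 1 the log2 ratio of Pdk1 was -0.36. The part of this list in the fall of Pdk1 was not tested.

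**Figure D4:**
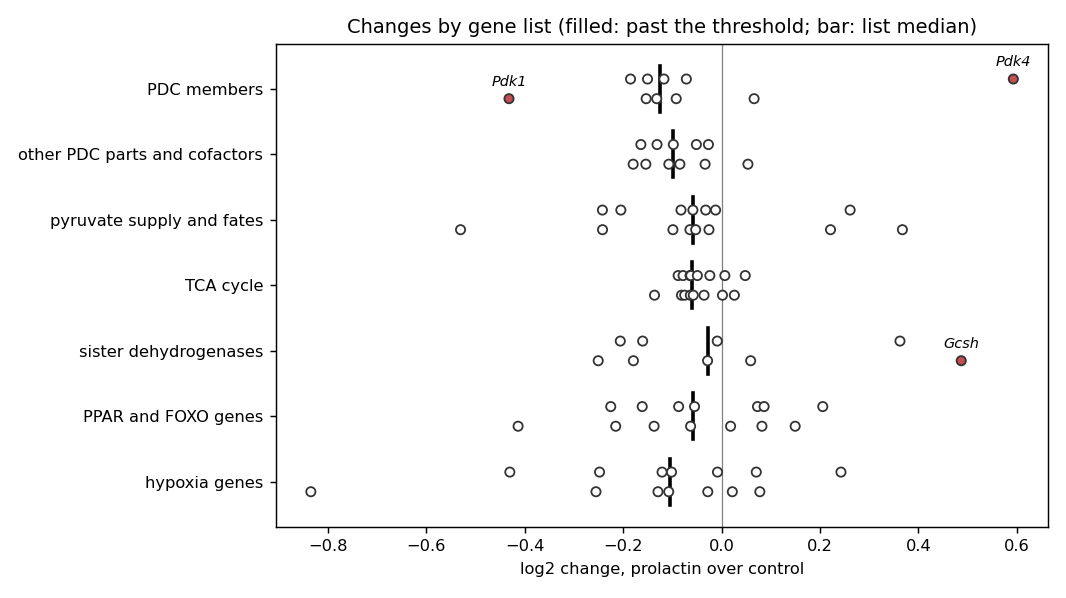
Fitted log2 ratio of prolactin over control (horizontal axis) for each tested gene of the 10 members and the 6 surrounding lists, with a bar at each list's median. Pdk4, Pdk1 and Gcsh are the filled points past the threshold, and all list medians lie between -0.12 and -0.03.

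By a fixed rule, the genes at 5 CPM or more whose log2 CPM followed Pdk4 most closely over the 6 libraries were named. They were Irx1, a transcription factor gene of alpha cells (Pearson r = 0.990), Cd200, an immune-inhibitory surface glycoprotein gene (0.989), and Btbd3 (0.988). Their log2 ratios were 0.45, 0.34 and 0.07, so a close pattern came with very unequal sizes. The 6 points share library depth and fall into the conditions, and these values are a description.

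The libraries held 230833584 to 530296257 assigned reads, and each member had between 2513 and 64773 reads in every library. Prolactin replicates 2 and 3 were much closer to each other (SD of log2 ratios 0.057 over genes at 5 CPM or more) than the other replicate pairs (0.163 to 0.243). The chi-square per degree of freedom between them was 10.8, which takes reads as independent. Mates counted separately would raise that value, and it cannot tell technical repeats from separate islets. With prolactin replicates 2 and 3 summed as 1 sample, neither Pdk4 (log2 ratio 0.58) nor Pdk1 (-0.44) passed. Insulin transcripts marked the libraries as islet RNA, with Ins2 at 70626 to 90043 CPM. Xist stood at 1140 to 1398 CPM while Y-linked Ddx3y and Eif2s3y had 0 counts in all 6, so the X-linked Pdk3 and Pdha1 were read in libraries alike in these markers.

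Markers of some other cells moved with the conditions, and in bulk RNA fewer cells of a type and less RNA per cell cannot be told apart. The summed level of 10 markers of fibroblasts, stellate cells and pericytes was 526, 513 and 350.0 CPM in control and 889, 721 and 727 CPM in prolactin. All 10 log2 ratios were positive, and 2 passed edgeR's test, Col1a1 (0.86, adjusted p = 0.0382) and Col1a2 (0.92, adjusted p = 0.0482). Without any single library other than control replicate 3, neither passed (adjusted p from 0.0542 to 0.158). The summed level of 10 alpha-cell markers was 38012, 28674 and 23912 CPM in control and 36902, 36025 and 35601 CPM in prolactin. Of their log2 ratios 7 were positive and 3 negative, with a median of 0.20. In edgeR 1 was called higher and 4 had an unadjusted p under 0.05, while DESeq2 called 3 higher and limma-voom 1. Control replicate 1, the control with the most Pdk4, also had the highest alpha-cell sum of all libraries. By the mean log2 CPM of these markers, which weights them equally, prolactin replicate 3 was highest, at 0.12 above the average of the 6 libraries against 0.11 for control replicate 1.

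All log2 ratios of 10 endothelial markers were positive, and 6 had an unadjusted p under 0.05 in edgeR. DESeq2 called 3 of them higher and limma-voom 1. In edgeR only Vwf passed (0.59, adjusted p = 0.0161). Its adjusted p was 0.0722 when control replicate 2 was left out, 0.129 on leaving out the second prolactin library and 0.125 on leaving out the third. The endothelial sum was 319 to 365 CPM in control and 373 to 382 CPM in prolactin. Among 7 delta-cell and PP-cell markers 4 log2 ratios were negative and 3 positive, with a median of -0.02. In edgeR 2 had an unadjusted p under 0.05, while DESeq2 called 2 lower and limma-voom 1. Sst fell in edgeR (-0.40, adjusted p = 0.0488). That call was kept without control replicate 3 and lost without any other single library (adjusted p from 0.067 to 0.279). It was also lost with upper-quartile scaling (adjusted p = 0.0515), halved counts (0.0507) or prolactin replicates 2 and 3 summed (0.273). The markers' sum was 8098 to 8553 CPM in control and 5749 to 7096 CPM in prolactin. Within it mean Sst went from 2401 to 1821 CPM. Ppy, named after its values were seen, went from 3394 to 2039 CPM (edgeR adjusted p = 0.0708). Of 10 beta-cell markers 0 passed in edgeR (1 had an unadjusted p under 0.05; DESeq2 called 0 and limma-voom 0), with a sum of 117066 to 143551 CPM in control and 119093 to 124568 CPM in prolactin. The acinar sum was 497 to 2825 CPM in control and 819 to 1877 CPM in prolactin, with 0 of 10 called by edgeR, of which 0 had an unadjusted p under 0.05, and 0 by either other tool. All 10 acinar log2 ratios were negative. The duct sum was 1146 to 1730 CPM in control and 1439 to 1996 CPM in prolactin, with 0 of 7 called by edgeR (2 had an unadjusted p under 0.05; DESeq2 called 1 higher and limma-voom 0). All 7 duct log2 ratios were positive. The leukocyte sum was 92.0 to 99.9 CPM in control and 89.3 to 105 CPM in prolactin, with 0 of 10 called by edgeR (1 had an unadjusted p under 0.05) and 0 by either other tool. No list had a marker at 0 in all libraries. The part of these cells in the rise of Pdk4 and the fall of Pdk1 was not tested. Without control replicate 3, the library lowest in stromal markers, the log2 ratios were 0.53 for Pdk4 and -0.45 for Pdk1, and the stromal difference was still there, with 0.70 for Col1a1 and 0.73 for Col1a2.

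**Figure D5:**
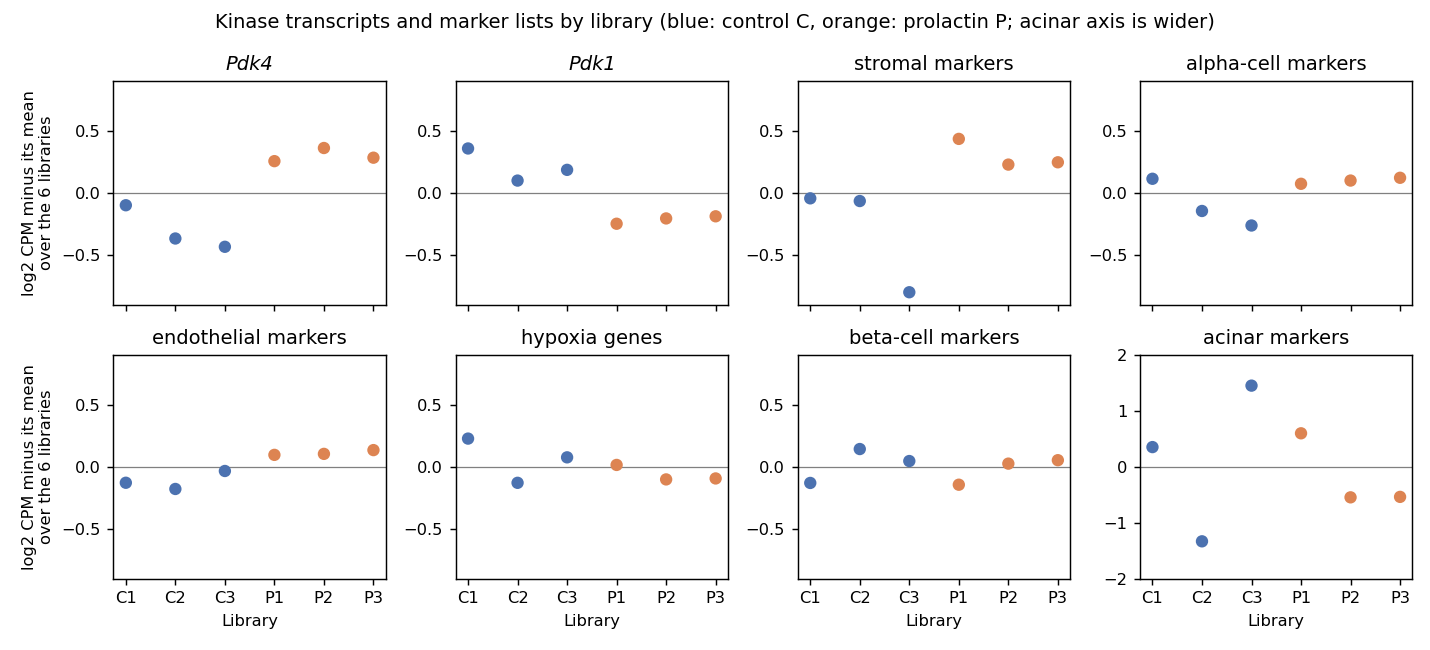
Log2 CPM minus its mean over the 6 libraries (vertical axes) for Pdk4, Pdk1 and 6 gene lists, controls in blue and prolactin in orange. Stromal markers are higher in all prolactin libraries and lowest in control replicate 3, hypoxia genes are highest in control replicate 1, and acinar markers vary mostly within the controls.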

How the data were processed

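Per the file headers, the authors made the deposited counts, whole numbers of reads per gene name, with featureCounts 2.0.3 on GENCODE vM10 gene models. The submitters' processing notes name mm10, SAMtools 1.21, Subread 2.1.0 and DESeq2. An aligner was not given in the sources used here. Per the headers, the command sets neither strand nor the counting of read pairs as 1, so mates can be counted separately (53.9% to 56.3% of counts from 1 to 20 were even). The authors' deposited table gives log2 fold changes and their SE, p-values, a test score and a mean signal per gene.

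Genes with a minimum count of 10 and a minimum total of 15 were kept by edgeR's filter (edgeR 4.0.16, R 4.3.3) and TMM-scaled. Prolactin was tested against control by quasi-likelihood with no other term, adjusted over all genes (Benjamini-Hochberg); an SE is the log2 ratio over the root of the test statistic. TPM used the exon length in the tables. Alternatives were DESeq2 1.42.0, limma-voom (limma 3.58.1), other scalings and filters, a replicate block, halved counts, summed prolactin replicates 2 and 3, and leaving out each library. Procedures were tested on simulated data.

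The members and gene lists were chosen with earlier results of these data known. Named genes were the 10 members, Dld, list genes past the threshold or else the 2 with the smallest p, up to 2 changed markers per cell type, and the 3 genes most like the kinase with the largest change, apart from a few not reported here. No column of sample values was left out.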

Additional observations from a re-analysis of the deposited data

How the results depend on the processing

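In the 15 alternative fits Pdk4 kept a positive and Pdk1 a negative log2 ratio (0.53 to 0.70 and -0.49 to -0.36); Pdk4 lost the threshold in 5 and Pdk1 in 4. Both were past it under every other scaling, filter and tool, with halved counts and with the replicate block. Members called numbered 0 with prolactin replicates 2 and 3 summed and 0 to 3 without 1 library, and the median of the members lay between -0.18 and -0.075 without 1 library. Pdk2 ranged from -0.0054 without control replicate 1, a turn in direction, to 0.12 without control replicate 2. Over all genes, 181 calls became 597 without a filter, 1079 by DESeq2, 598 with the replicate block, 44 with prolactin replicates 2 and 3 summed and 40 to 576 without 1 library. In the 6 surrounding lists, 1 call became 2 without a filter, 2 with 1 CPM in 3 libraries, 5 by DESeq2, 4 with the replicate block, 0 with prolactin replicates 2 and 3 summed and 0 to 4 without 1 library. Whether replicate numbers pair the libraries was not settled. Deviations of same-numbered libraries correlated at 0.39, 0.24 and -0.04, and those of differently numbered ones at -0.36 to 0.30. The length by the longest transcript was chosen after seeing the data. Because mates may be counted separately, no counting interval is given, and fitting 2 prolactin libraries leaves few degrees of freedom.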
